A study of Mus musculus with 22 samples.

Results

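A set of 10 genes of extracellular purine signalling was followed across 6 cell types of the mouse brain, out of 55385 genes quantified. They were taken by symbol and comprised the ATP-gated channels P2rx4 and P2rx7, the nucleotide receptors P2ry1, P2ry6, P2ry12, P2ry13 and P2ry14, the adenosine receptors Adora1 and Adora2a, and the ectonucleotidase Entpd1. The RNA was the ribosome-bound fraction of one cell type at a time: mice carried 1 floxed Rpl22 allele (Rpl22 Fl/+), which a Cre driver switches to an HA-tagged form of this ribosomal protein, and the tagged ribosomes were precipitated from dissected tissue at 6 weeks of age. Dentate gyrus granule cells (Rbp4-Cre, hippocampus), layer V cortical neurons (Rbp4-Cre, cortex), cerebellar granule cells (Gabra6-Cre, cerebellum), inhibitory interneurons (Dlx6a-Cre, hippocampus, 2 mice pooled per library), astrocytes (cortex, Aldh1-cre on the label and a tamoxifen-inducible Aldh1l1 line in the methods) and microglia (cortex, Tmem119-cre on the label and likewise inducible) gave 3 replicates each. Males and females were both used, and the labels name no treatment. Per the methods, mice of inducible Cre lines were given tamoxifen by oral gavage from 3 weeks of age. Here these were the astrocyte and microglia lines, so that tamoxifen cannot be told apart from glial against neuronal type. Each library reports the cells in which its driver was active rather than sorted cells.

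Cells release ATP and UDP when they are active or damaged. P2X receptors are channels opened by ATP, P2Y receptors are G protein-coupled receptors for ADP, ATP, UDP or UDP-sugars, and the surface enzyme CD39, the product of Entpd1, cuts ATP and ADP to AMP, from which adenosine is then formed. Adenosine acts on its own receptors, of which A1 (Adora1) damps transmitter release and A2a (Adora2a) is best known from striatal neurons. In the brain these receptors are well known for guiding microglial processes towards released nucleotides and for the block of sleep pressure by caffeine.

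The 18 libraries used, 3 per cell type, held 38270477 to 71440915 estimated counts (median 54631726). All microglia and interneuron libraries were labelled batch 2 and the other 12 libraries batch 1, and 4 replicates of the batch 1 cell types had also been sequenced in batch 2. The summed level of 8 microglial markers was 24696 to 25678 TPM (the share of all transcripts in a library, corrected for transcript length) in microglia and 48.1 to 67.8 TPM in astrocytes, the next cell type. Marker lists of astrocytes, interneurons, dentate gyrus granule cells and cerebellar granule cells were likewise highest in the cell type they name. The layer V list was not, at 292.2 to 309.2 TPM in layer V neurons against 712.2 to 745.3 TPM in cerebellar granule cells, where 4 of its 5 genes stayed under 1 TPM in every library. In dentate gyrus granule cells this list was at 270.6 to 308.3 TPM, overlapping layer V neurons. Oligodendrocyte markers summed to 2855 to 3059 TPM in interneurons, 993.2 to 1212 TPM in astrocytes and 550.6 to 644.2 TPM in microglia, and markers of brain border macrophages to 7.69 to 11.4 TPM in microglia. Endothelial markers were also highest in the microglia libraries, at 275.1 to 405.7 TPM against 42.7 to 58.1 TPM in astrocytes and at most 35.2 TPM in neurons, and their part in the levels found there was not tested. Interneuron replicate 3 stood apart from the other 2 interneuron libraries in Adora2a and in regional markers given with that gene below. The 2 libraries of layer V replicate 1 carry different sex labels, Female in batch 1 and Male in batch 2. Both had Xist, which female cells express, at over 2 TPM (2.45 and 2.12) and the Y-linked Ddx3y under 1 TPM (0.086 and 0.034), so that the batch 2 library, used only in the batch alternatives, went against its label. In such tissue libraries, fewer cells of a type and less RNA per cell cannot be told apart.

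Several of the genes lie side by side. On GRCm38, P2ry14 (chr3:59113855-59153618), P2ry13 (chr3:59207892-59210882) and P2ry12 (chr3:59216272-59262871) stand on the minus strand within the gene Med12l, which runs on the plus strand from base 59005825 to base 59318682. P2ry13 and P2ry12 are 5389 bases apart, and P2ry13 and P2ry14 are 54273 bases apart. P2rx7 (chr5:122643911-122691432) and P2rx4 (chr5:122707544-122729738), both on the plus strand, are separated by 16111 bases. P2ry1 lies further along the same chromosome as the P2Y cluster (chr3:61002795-61008982, plus strand). P2ry6 (chr7:100937630-100974649, minus), Adora1 (chr1:134199223-134235431, minus), Adora2a (chr10:75316877-75334784, plus) and Entpd1 (chr19:40612366-40741602, plus) stand alone.

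Because genes of the group that lie together or share a cell type could be compared in their start regions, the 250 bases before the RefSeq start of 4 genes are shown: P2ry13 and P2ry12, the neighbours with high levels in microglia, both starts of Entpd1, and Adora1, which was highest in neurons. Capitals mark GAGGAA on either strand, the core of the site that the myeloid factor PU.1 binds. The sequences are RefSeq's, GRCm38.p6, each on the strand of its gene.
P2ry13, chr3:59210883-59211132, minus strand: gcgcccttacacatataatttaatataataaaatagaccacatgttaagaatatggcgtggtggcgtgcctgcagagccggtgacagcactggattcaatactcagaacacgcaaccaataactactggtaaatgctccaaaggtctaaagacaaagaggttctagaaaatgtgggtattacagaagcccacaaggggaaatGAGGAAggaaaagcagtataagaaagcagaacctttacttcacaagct
P2ry12, chr3:59262986-59263235, minus strand: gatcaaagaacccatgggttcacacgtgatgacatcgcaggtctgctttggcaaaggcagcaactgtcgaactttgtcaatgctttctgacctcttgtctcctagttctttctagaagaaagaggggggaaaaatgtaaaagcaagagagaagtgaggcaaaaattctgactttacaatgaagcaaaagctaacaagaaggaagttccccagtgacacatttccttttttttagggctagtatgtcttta
Entpd1, first start, chr19:40612116-40612365, plus strand: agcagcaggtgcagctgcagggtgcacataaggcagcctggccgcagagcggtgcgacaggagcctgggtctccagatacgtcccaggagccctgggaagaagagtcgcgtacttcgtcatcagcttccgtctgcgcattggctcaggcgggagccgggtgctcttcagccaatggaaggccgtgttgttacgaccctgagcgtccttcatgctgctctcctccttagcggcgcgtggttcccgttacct
Entpd1, second start, chr19:40659520-40659769, plus strand: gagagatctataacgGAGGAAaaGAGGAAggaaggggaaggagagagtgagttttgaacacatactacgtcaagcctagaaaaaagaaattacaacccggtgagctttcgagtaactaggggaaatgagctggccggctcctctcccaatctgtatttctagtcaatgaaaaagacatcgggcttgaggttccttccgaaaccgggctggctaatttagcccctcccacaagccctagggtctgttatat
Adora1, chr1:134235458-134235707, minus strand: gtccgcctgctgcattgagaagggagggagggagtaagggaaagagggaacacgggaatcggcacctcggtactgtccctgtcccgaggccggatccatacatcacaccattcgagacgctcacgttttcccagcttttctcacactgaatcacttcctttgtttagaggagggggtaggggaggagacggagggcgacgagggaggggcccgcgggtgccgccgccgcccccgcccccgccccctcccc

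P2ry13 held 1 match, which began 48 bases before its start, and the second start of Entpd1 held 2, while P2ry12, the first start of Entpd1 and Adora1 held none. RefSeq start regions were at hand for 8 of the 10 genes, 14 in all, of which 6 held GAGGAA: 1 of P2ry13, 1 of Entpd1 and all 4 of P2ry14, a pair of which overlap and hold the same site. Among all 32851 start regions of the same 250 bases, which can overlap too, 23.3% held it. The TATA box letters TATAAA were in 1 start region of P2ry14 and in 12.4% of all, both strands being searched each time. CG dinucleotides numbered 5 in the P2ry13 region, 3 in P2ry12, 18 and 8 in the first and second of Entpd1, and 19 in Adora1, against a median of 6. The RefSeq start of P2ry12 lies 42726 bases from that of P2ry12-202, its most abundant transcript here, so that the region shown is not next to the start of that transcript.

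Of the 10 genes, 7 (P2rx4, P2rx7, P2ry6, P2ry12, P2ry13, P2ry14 and Entpd1) had their highest level in microglia, and in 6 of these astrocytes came second. Adora1 was highest in cerebellar granule cells, P2ry1 in interneurons and Adora2a, by its mean, in astrocytes. For 9 of the 10 genes the 3 libraries of the highest cell type lay above all 3 of the second, Adora2a being the exception. Of the 50 pairs of neighbours in the 10 orders of cell types, 29 did not overlap. Both counts only describe these 10 genes, since the same counts were not made over all genes.

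**Figure D1:**
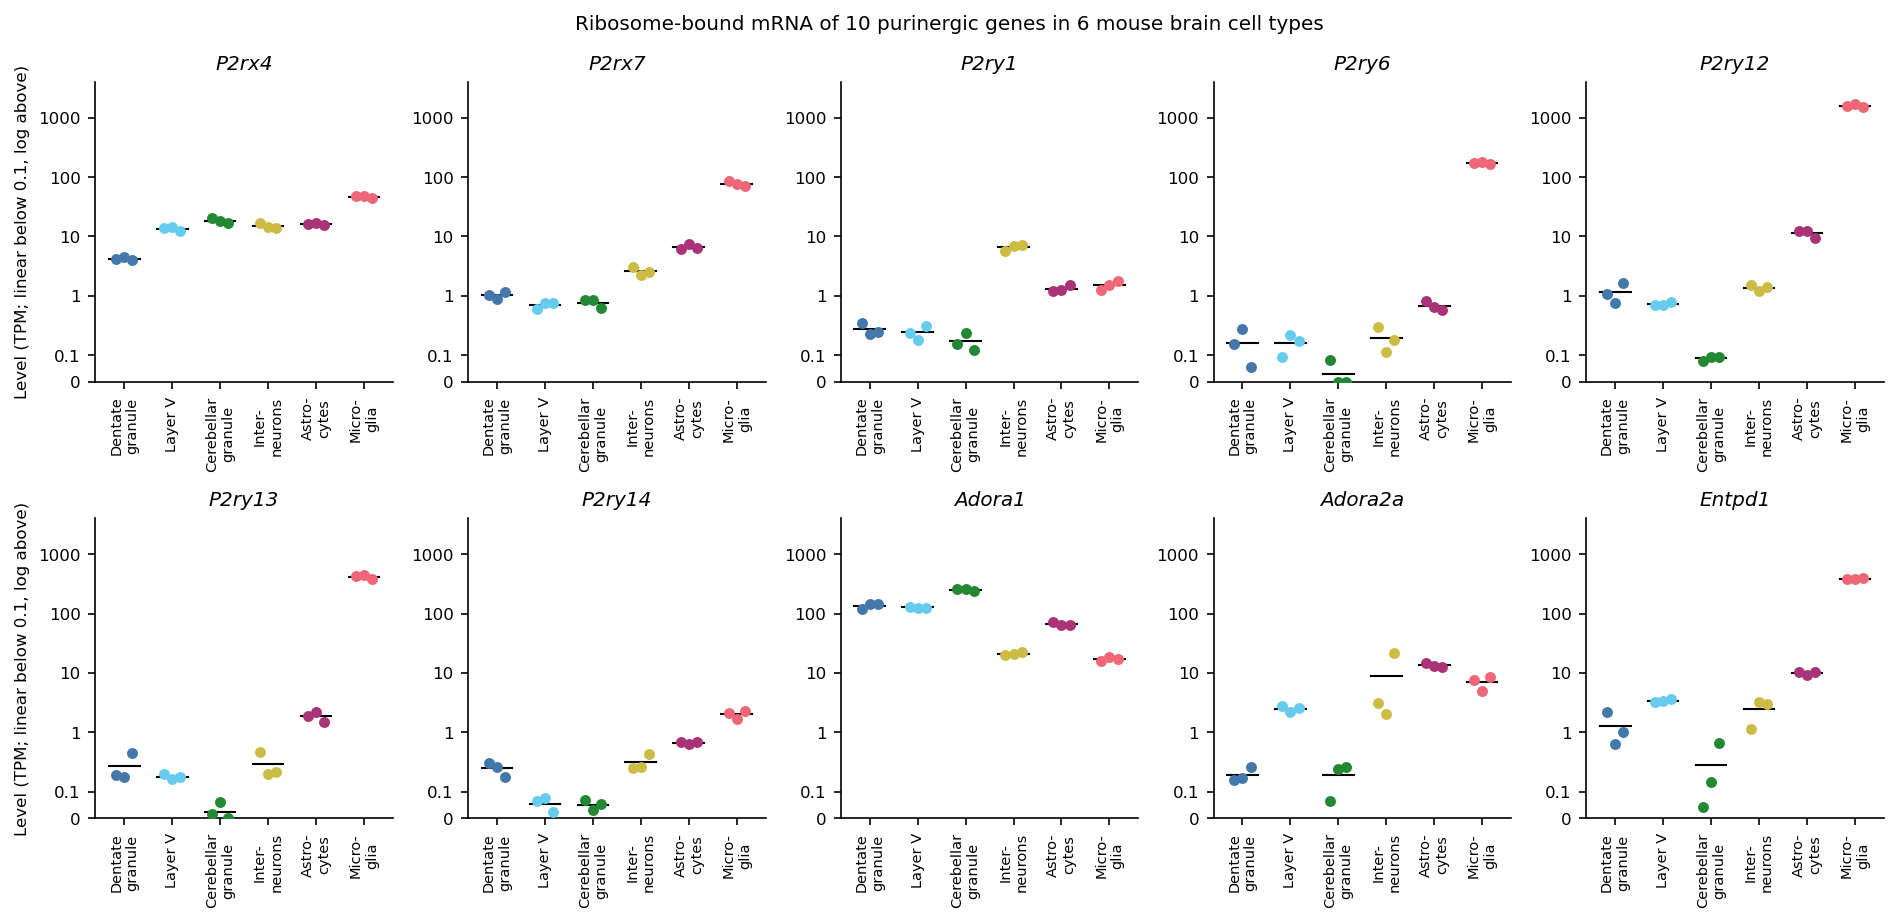
Level of each of the 10 genes in TPM (linear below 0.1, logarithmic above) in every library of the 6 cell types. Points are libraries and bars are means of 3. P2ry6, P2ry12, P2ry13 and Entpd1 stand in microglia far above every other cell type, Adora1 is lowest there, and 1 interneuron library stands apart for Adora2a.

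Of the channels, P2rx7, whose product opens at high ATP and feeds the inflammasome, had levels of 87.0, 75.1 and 71.3 TPM in the 3 microglia libraries. Astrocytes followed with 6.25, 7.49 and 6.38 TPM, and interneurons with 3.05, 2.24 and 2.48 TPM. The microglial mean was 11.6 times that of astrocytes, and none of these 3 groups overlapped another. Dentate gyrus granule cells had a mean level of 1.02 ± 0.149 TPM (SD, n = 3), above cerebellar granule cells (0.773 ± 0.137) and layer V neurons (0.711 ± 0.103), and these last 2 overlapped. Counting protein-coding transcripts alone, dentate gyrus granule cells were at 0.394 ± 0.123 TPM and layer V neurons at 0.434 ± 0.0276 TPM, the reverse order, and the fitted log2 fold change between them on counts was -0.22 (SE 0.144, edgeR adjusted p = 0.2567), not called.

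P2rx4, a channel that admits calcium and sits largely in endolysosomes, was the most evenly spread gene found highest in microglia. Its levels were 48.0, 48.1 and 43.7 TPM in microglia and 20.2, 18.1 and 16.9 TPM in cerebellar granule cells, which came second at a ratio of means of 2.53. Astrocytes (16.1, 16.7 and 15.3 TPM), interneurons (16.6, 14.3 and 14.1 TPM) and layer V neurons (13.9, 14.2 and 12.2 TPM) followed, each overlapping the next. Dentate gyrus granule cells were below all others at 4.22, 4.57 and 3.95 TPM. The ratio of the P2rx7 to the P2rx4 level was 1.56 to 1.81 in the microglia libraries, 0.388 to 0.447 in those of astrocytes and at most 0.297 in every neuronal library, so that P2rx7 exceeded P2rx4 only in microglia among these 6 cell types.

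P2ry12, the ADP receptor through which microglial processes find injury, had the highest level of any of the 10 genes in any cell type. It reached 1592, 1690 and 1490 TPM in microglia, 12.3, 12.5 and 9.47 TPM in astrocytes, and 1.51, 1.22 and 1.38 TPM in interneurons. The microglial mean was 139.4 times the astrocytic mean. Dentate gyrus granule cells (1.06, 0.757 and 1.65 TPM) overlapped interneurons on one side and layer V neurons (0.690, 0.694 and 0.785 TPM) on the other. Each cerebellar granule cell library held 3 estimated counts of the gene.

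Its neighbour P2ry13, a second ADP receptor, followed the same order of cell types. Its levels were 427.2, 438.7 and 376.3 TPM in microglia and 1.92, 2.17 and 1.49 TPM in astrocytes, a ratio of means of 222.7. No neuronal library exceeded 0.473 TPM, and 1 cerebellar granule cell library was at 0. In microglia P2ry12 stood 3.73 to 3.96 times above P2ry13 within a library, and in astrocytes 5.77 to 6.38 times, ranges that do not overlap.

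P2ry6, the UDP receptor known for triggering microglial phagocytosis, was at 171.4, 180.2 and 167.1 TPM in microglia and at 0.810, 0.639 and 0.575 TPM in astrocytes. This ratio of means, 256.2, was the largest between the first and second cell type among the 10 genes. All 12 neuronal libraries stayed at or under 0.300 TPM with at most 14 estimated counts, and 2 of the cerebellar granule cell libraries were at 0.

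P2ry14, the UDP-glucose receptor and the remaining gene of the chromosome 3 cluster, did not share these levels. It was at 2.15, 1.68 and 2.29 TPM in microglia, on 87.0 to 153.0 estimated counts, and at 0.684, 0.634 and 0.693 TPM in astrocytes. Microglia stood above astrocytes by a ratio of means of 3.04 without overlap. Interneurons (0.252, 0.264 and 0.437 TPM) and dentate gyrus granule cells (0.302, 0.265 and 0.177 TPM) overlapped, and layer V neurons and cerebellar granule cells held 1 to 5 estimated counts.

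P2ry1, an ADP receptor coupled to calcium release, was the one P2Y receptor highest in a neuronal type. Its levels in interneurons were 5.69, 6.89 and 7.10 TPM, against 1.25, 1.50 and 1.76 TPM in microglia and 1.21, 1.25 and 1.50 TPM in astrocytes. Interneurons stood above both, by a ratio of means of 4.36 over microglia, while microglia and astrocytes overlapped. The excitatory neurons were lower still, with means of 0.277 ± 0.0684 TPM in dentate gyrus granule cells, 0.243 ± 0.0659 in layer V neurons and 0.172 ± 0.0614 in cerebellar granule cells (SD, n = 3), each overlapping the next.

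Adora1, the adenosine A1 receptor, ran in the opposite direction to most of the group. Its levels were 259.6, 260.2 and 237.7 TPM in cerebellar granule cells, 121.7, 143.6 and 143.0 TPM in dentate gyrus granule cells and 130.6, 125.9 and 125.8 TPM in layer V neurons. Cerebellar granule cells stood above the other 2 excitatory types, which overlapped. Astrocytes (73.2, 63.7 and 63.6 TPM) came next, then interneurons (20.1, 20.9 and 22.2 TPM) and microglia (15.8, 18.3 and 17.3 TPM), with no overlap between them. Adora1 made up 93.8% of the summed level of the 10 genes in dentate gyrus granule cells, 92.7% in cerebellar granule cells and 85.6% in layer V neurons, 51.7% in astrocytes and 36.6% in interneurons. In microglia it was 0.633%, and there P2ry12 held 58.6%, P2ry13 15.2%, Entpd1 14.2%, P2ry6 6.37% and P2rx7 2.87% of a sum of 2571 to 2839 TPM.

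Adora2a, the adenosine A2a receptor, was at 14.8, 13.3 and 12.5 TPM in astrocytes, 7.51, 4.98 and 8.55 TPM in microglia and 2.79, 2.24 and 2.54 TPM in layer V neurons. In interneurons it was at 3.08, 2.03 and 21.3 TPM, so that replicate 3 was above every other library and the other 2 were below all of microglia. Dentate gyrus and cerebellar granule cells had means of 0.195 ± 0.0567 and 0.191 ± 0.110 TPM (SD, n = 3) and overlapped. Adora1 exceeded Adora2a in all 18 libraries, by 46.8 to 56.2 times in layer V neurons, 4.81 to 5.09 times in astrocytes, 2.03 to 3.68 times in microglia and 6.51, 10.3 and 1.04 times in the interneuron replicates 1, 2 and 3.

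The 5 markers of striatal projection neurons, a subset of which is rich in Adora2a, were all highest in the same interneuron library. Ppp1r1b, the phosphatase inhibitor DARPP-32, was at 35.9, 29.2 and 150.9 TPM in interneuron replicates 1, 2 and 3, and Rgs9 at 8.47, 8.002 and 27.0 TPM. Drd1 was at 5.47, 5.52 and 16.0 TPM, Gpr6 at 2.32, 1.86 and 6.25 TPM, and Drd2 at 12.1, 11.0 and 14.97 TPM. The transcription factor genes Zic1 (36.4, 29.8 and 2.16 TPM) and Zic2 (28.9, 21.4 and 1.81 TPM) were lowest in it. The summed striatal list was 55.6 to 215.1 TPM in interneurons and 168.6 to 205.4 TPM in astrocytes, followed by 113.6 to 119.5 in layer V neurons, 89.6 to 120.6 in microglia, 49.9 to 61.1 in dentate gyrus granule cells and 20.1 to 24.7 in cerebellar granule cells. The part of such cells in the Adora2a levels was not tested. Replicate 3 was also the only interneuron library pooled from 2 males, the other 2 being pooled from a male and a female.

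**Figure D2:**
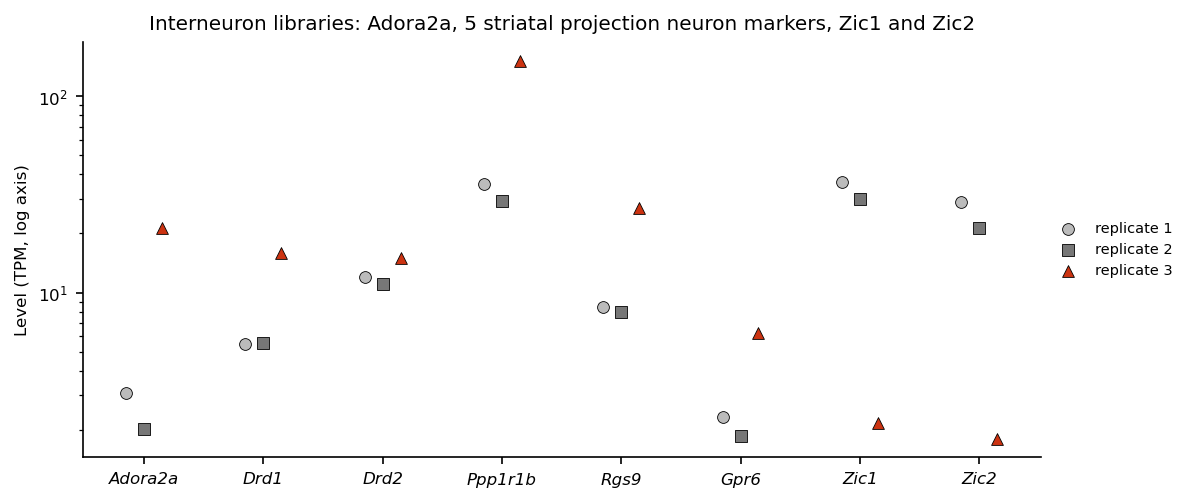
Levels in TPM (logarithmic axis) of Adora2a, 5 striatal projection neuron markers, Zic1 and Zic2 in the 3 inhibitory interneuron libraries, each symbol standing for 1 library. Replicate 3 is above the other 2 for Adora2a (21.3 against 3.08 and 2.03 TPM) and all 5 markers, and below them for Zic1 and Zic2.

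Entpd1, which encodes the nucleotide-cutting enzyme CD39, was at 381.5, 380.1 and 392.6 TPM in microglia and at 10.6, 9.43 and 10.4 TPM in astrocytes. The ratio of means was 37.97, smaller than those of P2ry6, P2ry12 and P2ry13. Layer V neurons came next at 3.20, 3.36 and 3.70 TPM and overlapped interneurons, whose libraries spread from 1.16 to 3.23 TPM. Dentate gyrus granule cells ranged from 0.642 to 2.16 TPM and cerebellar granule cells from 0.0439 to 0.654 TPM on 5 to 11 estimated counts.

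The differences between cell types were tested on the estimated counts of all 20524 genes that passed a filter on low counts, all 10 genes among them, with edgeR's quasi-likelihood test in 1 fit. A gene was called at a Benjamini-Hochberg adjusted p of at most 0.05 and a change of at least 2-fold. Each contrast sets a cell type against the mean of the log levels of others, so that a gene can be called higher than that mean while 1 of the others lies above it. In microglia against the other 5 cell types, 9 of the 10 genes were higher and 1, Adora1, was lower, where 29.0% of all genes tested were called higher and 20.8% lower. The fitted log2 fold changes were 10.94 for P2ry13 (SE 0.106, adjusted p = 1.022e-22), 10.70 for P2ry6 (SE 0.0899, adjusted p = 1.429e-23), 10.41 for P2ry12 (SE 0.0812, adjusted p = 6.587e-24) and 8.76 for Entpd1 (SE 0.0836, adjusted p = 8.375e-23). P2rx7 (6.16), P2ry14 (3.68), Adora2a (2.41), P2rx4 (2.01) and P2ry1 (1.34) followed, and Adora1 was lower by a log2 fold change of -2.25 (SE 0.0508, adjusted p = 1.334e-17). P2ry1 was called higher here although its level in interneurons was above that of microglia. So was Adora2a, although all its astrocyte libraries (12.5 to 14.8 TPM) lay above those of microglia (4.98 to 8.55 TPM). The median log2 fold change of the 10 genes was 4.92, beside 0.0861 over all genes tested.

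In astrocytes against the 4 neuronal cell types, 8 of the 10 genes were higher and none lower, where 28.3% of all genes were called higher and 13.7% lower. P2ry12 (log2 fold change 4.49, SE 0.120, adjusted p = 2.171e-16), Adora2a (4.16, SE 0.450, adjusted p = 1.341e-07), P2ry13 (3.99), Entpd1 (3.84) and P2rx7 (3.60) led. P2ry6 (3.14), P2ry14 (2.76) and P2ry1 (1.53) were also called, while P2rx4 (0.78) and Adora1 (-0.31, adjusted p = 5.556e-06) were under 2-fold. P2ry1 was not higher than every neuronal type. Its astrocyte libraries (1.21 to 1.50 TPM) all lay below those of interneurons (5.69 to 7.10 TPM). Among the batch 1 libraries alone, which leave out the interneurons, Adora1 was called lower in astrocytes at -1.03 (adjusted p = 9.239e-11). The median was 3.37, beside 0.1401 over all genes.

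In interneurons against the 3 excitatory types, 7 genes were higher and Adora1 was lower, where 18% of all genes were called higher and 6.64% lower. P2ry1 was higher by a log2 fold change of 4.67 (SE 0.164, adjusted p = 4.556e-14) and Adora1 lower by one of -3.12 (SE 0.0551, adjusted p = 4.907e-18). Adora2a stood at 4.23 (SE 0.533, adjusted p = 1.59e-06) with all libraries and at 2.30 (adjusted p = 8.833e-09) without interneuron replicate 3. Without that replicate, interneurons (3.08 and 2.03 TPM) overlapped layer V neurons (2.24 to 2.79 TPM). Only dentate gyrus and cerebellar granule cells were then lower, at means of 0.195 and 0.191 TPM. P2rx7 was higher by 1.99 (SE 0.0914, adjusted p = 1.89e-12), and P2ry14 (1.50), P2ry6 (1.40), P2ry12 (1.36) and P2ry13 (1.27, adjusted p = 0.01457) were called on the few counts given above. For P2ry14, P2ry6, P2ry12 and P2ry13, interneuron libraries overlapped those of dentate gyrus granule cells. The ratios of means between these 2 types were 1.28, 1.21, 1.19 and 1.08, and cerebellar granule cells had the lowest mean for each gene. P2rx4 (0.46) and Entpd1 (0.97) did not reach 2-fold, though Entpd1 passed it, at 1.01 to 1.12, without dentate gyrus replicate 1 or 3, cerebellar granule cell replicate 3 or interneuron replicate 1 or 2. Within batch 2 alone P2ry12 (0.75) and P2ry13 (0.28, adjusted p = 0.5963) were not called, and P2ry13 was also not called with batch as a covariate over all 22 libraries (0.60, adjusted p = 0.1699) or without interneuron replicate 1 (0.73, adjusted p = 0.1851). P2ry6 was not called on length-scaled TPM (0.94, adjusted p = 0.0891), nor by limma on log2(TPM + 0.1) (0.54, adjusted p = 0.09073) or log2(TPM + 0.5) (0.18, adjusted p = 0.1789). The median was 1.38, beside 0.0758 over all genes.

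In cerebellar granule cells against dentate gyrus granule cells and layer V neurons, 1 gene was higher, 6 were lower and 3 were not called, where 15.2% of all genes were called higher and 29.0% lower. P2rx4 was higher by a log2 fold change of 1.16 (SE 0.0873, adjusted p = 9.26e-10). P2ry12 (-3.46), Entpd1 (-3.43), P2ry13 (-3.24), P2ry6 (-3.11), Adora2a (-2.62, adjusted p = 0.03677) and P2ry14 (-1.29, adjusted p = 0.03413) were lower. Not all were lower than both types. Adora2a was at means of 0.191 TPM in cerebellar and 0.195 TPM in dentate gyrus granule cells, against 2.52 TPM in layer V neurons. P2ry14 was at 0.0511 TPM in cerebellar granule cells and 0.0548 TPM in layer V neurons, against 0.248 TPM in dentate gyrus granule cells. The libraries of cerebellar and dentate gyrus granule cells also overlapped for Entpd1 and P2ry6. Adora1 was 0.91 higher (SE 0.0459, adjusted p = 3.2e-12), just under 2-fold, and passed at 1.00 without cerebellar granule cell replicate 3. The Adora2a and P2ry14 calls ended when single libraries were left out, and that of P2ry14 rested on few counts. Adora2a had few counts in both types of granule cells (6 to 10 in cerebellar ones) but 200 to 247 in layer V neurons. Without any 1 dentate gyrus or cerebellar granule cell library or layer V replicate 1, its adjusted p was 0.05147 to 0.1205. The log2 fold changes of Adora2a were then -2.77 to -2.27. Without interneuron replicate 3, a library on neither side of this contrast, Adora2a was called at -2.60 (adjusted p = 2.804e-07). The fit estimated the spread of a gene over all 6 cell types together, so that a library on neither side also enters the test. How much this changed the adjusted p was not tested. For P2ry14, adjusted p was 0.05672 to 0.1677, with log2 fold changes of -1.50 to -0.99, without any 1 cerebellar granule cell library, dentate gyrus replicate 1, or layer V replicate 1 or 2, and it was 0.07349 by DESeq2. Within batch 2 alone, where each of these 3 cell types had 1 library, assumed to vary like the others, the values were -4.33 for Adora2a (adjusted p = 0.2387) and -1.88 for P2ry14 (adjusted p = 0.06912). The median was -1.95, beside -0.1945 over all genes.

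Between dentate gyrus granule cells and layer V neurons, which share the Rbp4-Cre driver, 3 genes were lower in the dentate gyrus, 1 was higher and 6 were not called, where 13.2% of all genes were called in each direction. Adora2a was lower by a log2 fold change of -3.98 (SE 0.870, adjusted p = 0.000656), P2rx4 by one of -1.73 (SE 0.111, adjusted p = 2.688e-10) and Entpd1 by one of -1.12 (SE 0.197, adjusted p = 7.762e-05). P2ry14 was higher by 1.83 (SE 0.438, adjusted p = 0.001438). Of these 4 calls, that of P2rx4 alone held within batch 2, where each of the 2 cell types had 1 library, assumed to vary like the others, and where the values were -3.76 for Adora2a (adjusted p = 0.1222), 0.28 for P2ry14 (adjusted p = 0.7611) and -0.85 for Entpd1 (adjusted p = 0.0006408). Without dentate gyrus replicate 2, Entpd1 stood at -0.84 (adjusted p = 1.437e-05), under 2-fold. The median was -0.21, beside 0.0457 over all genes.

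**Figure D3:**
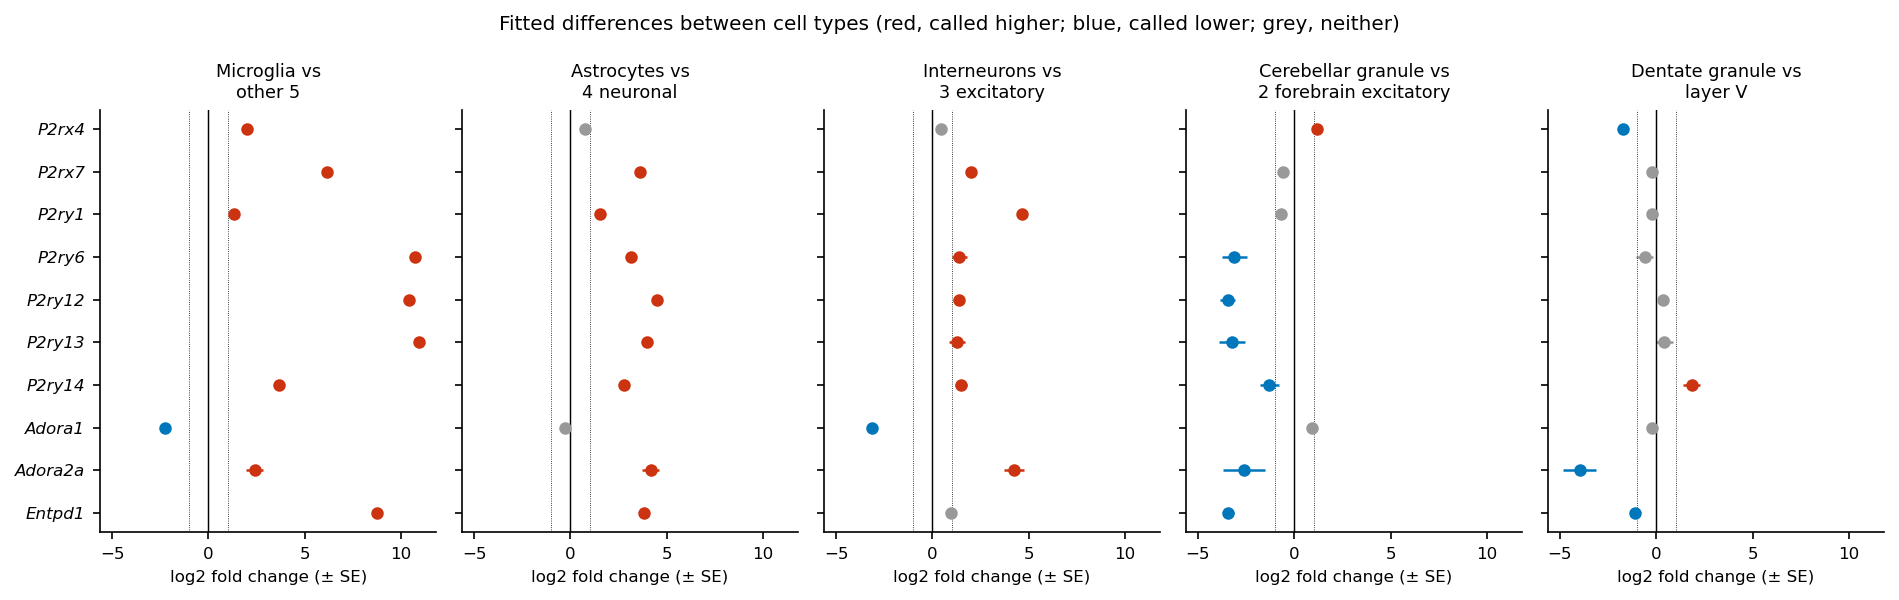
Fitted log2 fold change of each gene in the 5 contrasts, with its SE as a bar. Red points are called higher, blue points lower and grey points neither, and dotted lines mark 2-fold. In microglia 9 genes lie to the right and Adora1 to the left, and in cerebellar granule cells 6 are called lower than the mean of the 2 forebrain types.

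Microglial markers were detected at a low level in every other library, and the source of this RNA was not tested. The levels of the 10 genes were set beside those of the 8 microglial markers (Tmem119, Cx3cr1, Csf1r, C1qa, C1qb, Aif1, Itgam and Trem2), each as a percentage of its own microglial level. The markers stood at 0.184% to 0.4125% in astrocytes (median 0.298%), 0.0318% to 0.22% in interneurons (median 0.0505%), 0.0221% to 0.198% in dentate gyrus granule cells (median 0.0515%), 0.0245% to 0.315% in layer V neurons (median 0.0379%) and 0.001% to 0.0286% in cerebellar granule cells (median 0.0074%). P2ry6, P2ry12 and P2ry13 lay within the range of the markers in all 4 neuronal types, P2ry12 at 0.0862% in interneurons, 0.0726% in dentate gyrus granule cells, 0.0454% in layer V neurons and 0.0055% in cerebellar granule cells. In astrocytes P2ry6 (0.390%) lay within it, and P2ry13 (0.449%) and P2ry12 (0.717%) were above the highest marker. Outside microglia, these 3 receptors and the summed microglial markers were both highest in astrocytes and lowest in cerebellar granule cells. The sums were 48.1 to 67.8 TPM in astrocytes, 11.1 to 12.2 in interneurons, 9.78 to 12.8 in layer V neurons, 8.69 to 11.7 in dentate gyrus granule cells and 1.01 to 1.43 in cerebellar granule cells, where all 8 were under 1 TPM in every library and none was at 0 throughout. The part of microglial RNA in the calls of these genes outside microglia was not tested.

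Summed over all transcripts, the other 7 genes stood above every marker in all 5 cell types, Entpd1 in cerebellar granule cells only with replicate 3. P2rx7 was at 8.62% of its microglial level in astrocytes and 3.33% in interneurons, and at 0.914% to 1.32% in the 3 excitatory types. Entpd1 was at 2.63% in astrocytes, and dentate gyrus granule cells (0.331%), interneurons (0.643%) and layer V neurons (0.889%) followed. In cerebellar granule cells, at 0.0439, 0.147 and 0.654 TPM, it was at 0.0732% with all 3 libraries and at 0.0248%, within the range of the markers, without replicate 3, a choice made after the values were seen. Counting its protein-coding transcripts alone, with the markers still summed over all of theirs, Entpd1 lay within the range in both dentate gyrus granule cells (0.169%) and cerebellar granule cells (0.0251%). P2rx4 was at 9.11% to 39.5% and P2ry14 at 2.51% to 32.9% over the 5 cell types.

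**Figure D4:**
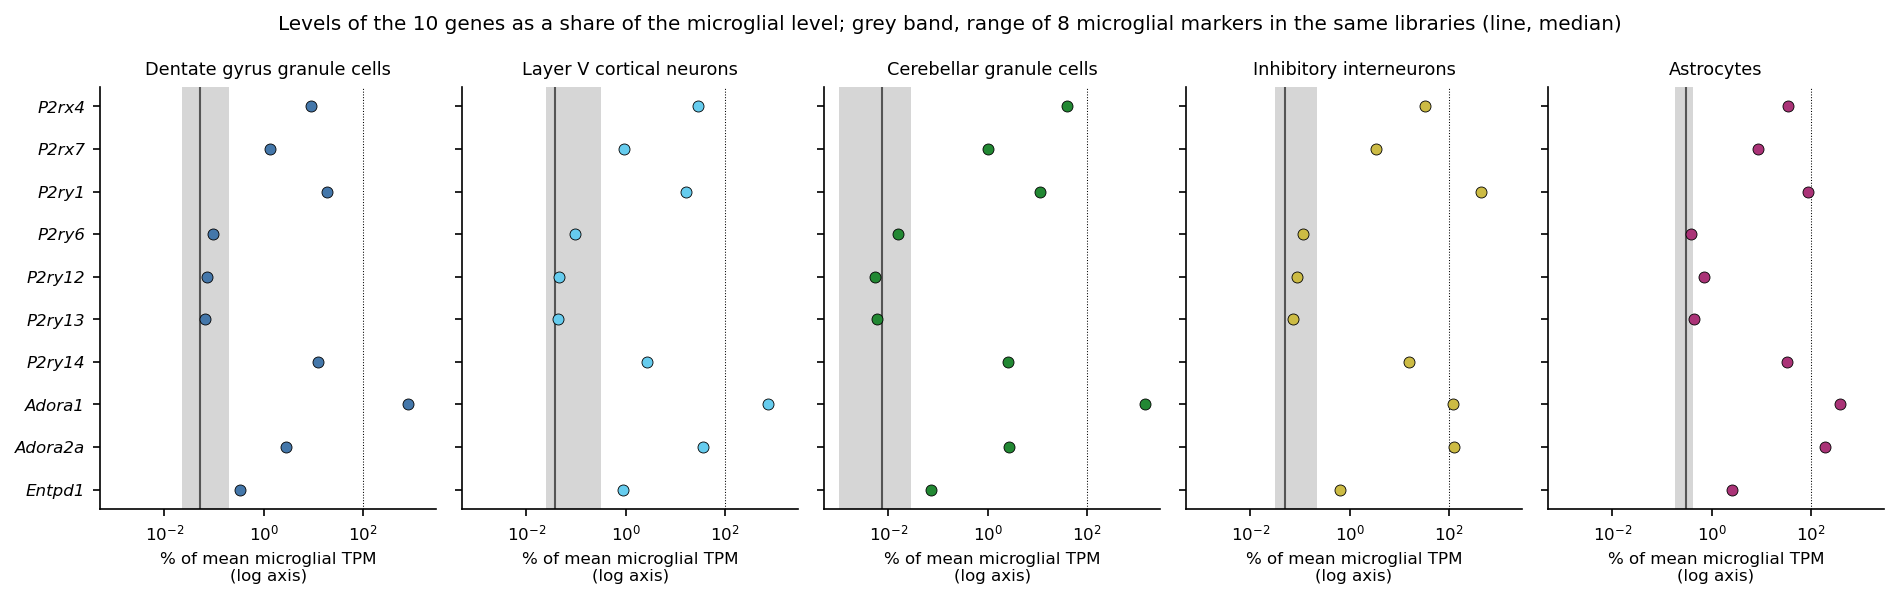
Mean level of each gene in 5 cell types as a percentage of its mean microglial TPM (logarithmic axis, dotted line at the microglial level). The grey band spans the 8 microglial markers in the same libraries and the line is their median. P2ry6, P2ry12 and P2ry13 fall in the band in all 4 neuronal types.

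Transcripts of the genes differed in their shares between cell types, as the deposited estimates divide them. Transcripts annotated as protein coding held 98.7% of the Entpd1 level in microglia, against 61.4% in astrocytes, 36.5% in interneurons and 35.3% in layer V neurons. Entpd1-204 and Entpd1-201 held 52.9% and 43.4% of the gene in microglia and 23.4% and 37.1% in astrocytes. The noncoding Entpd1-208, of 204 bases, held 30.2% in astrocytes, and Entpd1-210, a processed transcript of 380 bases, held 27.8% in layer V neurons. Counting protein-coding transcripts alone, Entpd1 was at 6.22 ± 0.218 TPM in astrocytes, 1.64% of its microglial level, and at 1.21 ± 0.0185 TPM in layer V neurons, 0.318% of it (SD, n = 3).

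P2rx7-203 was the leading P2rx7 transcript in both glial types, with 48.9% of the gene in microglia and 61.7% in astrocytes. P2rx7-204 held 18.3% in microglia (16.9% to 19.8% over the 3 libraries) and 2.83% in astrocytes, and P2rx7-201 held 3.69% and 18.3%. The noncoding P2rx7-206 held 19.0% in microglia and 3.99% in astrocytes. In cerebellar and dentate gyrus granule cells only 40.0% and 38.5% of the low P2rx7 level was protein coding. P2ry12-202 held 52.5% of P2ry12 in microglia and 37.2% in astrocytes, and P2ry12-205 held 38.2% and 24.4%. P2rx4-206 held 26.5% of P2rx4 in microglia and 6.56% in layer V neurons, where the noncoding P2rx4-205 held 15.1%. Adora1-202 led in all cell types, at 48.5% in astrocytes and 67.4% in layer V neurons. With protein-coding transcripts alone, all 10 genes kept their highest cell type.

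**Figure D5:**
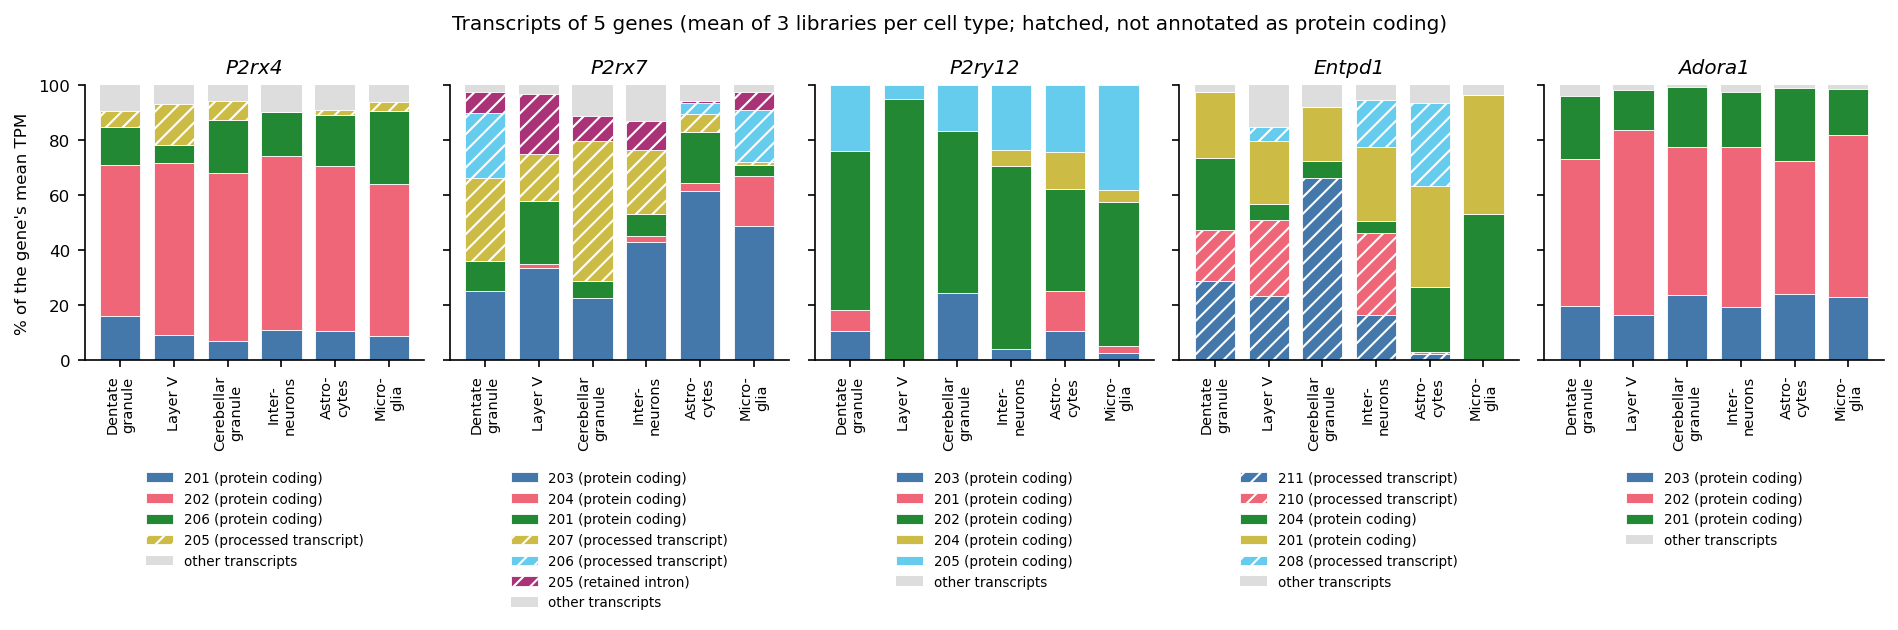
Percentage of the mean TPM of P2rx4, P2rx7, P2ry12, Entpd1 and Adora1 held by each transcript in the 6 cell types. Stacked colours are transcripts that hold at least 10% in a cell type, grey is all others, and hatching marks transcripts not annotated as protein coding. Hatched Entpd1 transcripts are all but missing in microglia and hold 30.2% (Entpd1-208) in astrocytes.

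Overlapping genes were looked at because the sources used here do not state whether strand was used in the quantification. Med12l shares 9 exonic bases with P2ry12 and none with P2ry13 or P2ry14, and its level was highest in cerebellar (14.2 TPM) and dentate gyrus granule cells (13.2 TPM) and 3.83 TPM in microglia. Mybph, on the opposite strand, shares 1162 bases or 20.1% of the exonic bases of Adora1 and did not exceed a mean of 0.869 TPM. The antisense gene Gm37035 shares 23.1% of the exonic bases of P2ry1 and did not exceed 0.0565 TPM.

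For each gene, the 2 genes with the most similar pattern were taken by Pearson's r of log2(TPM + 0.5) over the 18 libraries, which share 6 cell types and so are not 18 independent points. P2ry12 was most like Ceacam1 (r = 0.997) and the complement gene C1qc (0.997), P2ry13 most like the integrin gene Itgam (0.999) and Casp8 (0.999), and P2ry6 most like Nfam1 (0.999) and Havcr2 (0.999). Entpd1 was most like B2m (0.986) and Lair1 (0.985), P2rx7 most like Pld1 (0.994) and Lyz2 (0.993), and P2ry14 most like Tap1 (0.989) and Tmem204 (0.987). All these had their highest mean level in microglia, as had Smad2 (0.958) and Tmem141 (0.952), the genes most like P2rx4. P2ry1 was most like Wnt5b (0.979) and Igf1 (0.978), both highest in interneurons, and Adora1 most like the transcription factor genes Klf9 (0.981) and Nfix (0.973), both highest in cerebellar granule cells. Adora2a was most like Cd4 (0.975) and 4931440P22Rik (0.962), both highest in astrocytes at under 2 TPM.

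Of 30 other genes of purine signalling, 26 could be tested. In microglia 12 were higher and 7 lower than in the other 5 cell types, beside 29.0% and 20.8% of all genes tested. The adenosine A3 receptor gene Adora3 was the largest of them, at 61.5 TPM in microglia against 0.153 TPM elsewhere (log2 fold change 9.27, adjusted p = 1.075e-19), so that among the adenosine receptors A3 exceeded A1 (17.2 TPM) and A2a (7.01 TPM) in microglia. P2rx1 (6.07), the endolysosomal nucleoside transporter gene Slc29a3 (5.53) and the vesicular nucleotide transporter gene Slc17a9 (5.46) were also higher. Slc29a4, a transporter of monoamines and adenosine, was lower (-2.80), as was Adk (-2.18), the adenosine kinase that clears adenosine, at 16.3 TPM against 105.8 TPM.

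In astrocytes 14 were higher and 6 lower than in the 4 neuronal types, beside 28.3% and 13.7% of all genes. Adora2b, the A2b receptor, was at 25.4 TPM against 0.190 TPM (7.60), Entpd2, which turns ATP into ADP, at 86.6 TPM against 0.798 TPM (7.19), Alpl, a phosphatase that also makes adenosine from AMP, at 39.3 TPM against 0.595 TPM (6.51), and Adk at 301.7 TPM against 56.9 TPM (2.64). Entpd2 was thus 86.6 TPM and Entpd1 10.1 TPM in astrocytes, while in microglia they were 1.75 and 384.7 TPM. P2rx5 (-3.05), Slc29a4 (-2.68) and the channel gene Panx2 (-1.91) were lower.

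In interneurons 13 were higher and 1, Slc29a4 (-1.42), was lower than in the excitatory types, beside 18% and 6.64% of all genes. Enpp3 (3.51) and P2rx2 (3.36) had the largest changes at under 1 TPM, and Enpp2 was at 157.9 TPM against 34.7 TPM (2.73), beside the oligodendrocyte markers given above, whose part in it was not tested. The ATP release channel gene Panx1 was at 47.7 TPM against 12.96 TPM (1.69). In cerebellar granule cells 2 were higher, Slc29a4 (1.41) and Entpd2 (1.41), and 11 were lower, led by Enpp2 (-3.81) and Entpd3 (-3.28), beside 15.2% and 29.0% of all genes. Slc29a4 was at 104.3 TPM there and 12.98 TPM in interneurons. Both levels lay between those of layer V neurons (6.36 TPM) and dentate gyrus granule cells (143.6 TPM). In dentate gyrus granule cells 7 were higher and 1 lower than in layer V neurons, beside 13.2% of all genes in each direction. Slc29a4 led among them at 143.6 TPM against 6.36 TPM (3.62), followed by Slc28a3 (3.42) at 0.170 TPM and P2rx5 (2.80), and Enpp3 (-2.05) was the one lower. Nt5e, the enzyme that makes adenosine from AMP, was higher by 2.14 at 2.38 TPM against 0.4598 TPM.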

How the data were processed

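Ribosome-bound RNA was prepared with a stranded mRNA kit and sequenced. Per the submitters' processing notes, reads were trimmed with cutadapt 3.5 and quantified with kallisto 0.46.2. The deposited files give an estimated count and TPM for each of 142552 transcripts per library, and both were summed per gene here. Reads shared by transcripts are divided by kallisto's model, so transcript shares are estimates, and the use of strand is not given in the sources used here. The study's own test was not run. The batch 1 library was used for the 4 replicates sequenced in both batches, and the methods describe the replicates as biological. Rounded sums of the deposited estimated counts entered edgeR 4.0.16 in R 4.3.3 (TMM, filterByExpr, quasi-likelihood test, 18 libraries, adjustment over 20524 genes), after a test on simulated data. Levels are the authors' deposited TPM. Neighbouring cell types were said to differ only where the ranges of their 3 libraries did not overlap. Alternatives used DESeq2 1.42.0, limma 3.58.1 on log2(TPM + 0.5) or log2(TPM + 0.1), length-scaled TPM, protein-coding transcripts, other filters and folds, batches, a replicate block and leaving out each library. Coordinates are from GENCODE M21 on GRCm38, not the release quantified. The 10 genes, the lists and the motifs were chosen with earlier results of these data known. Named beyond the 10 genes are markers, overlapping genes, the 2 most similar genes each, and the purine genes with the largest called changes, with Panx1, Panx2, Enpp2, Adk and Nt5e added after their values were seen. Replicate numbers did not pair the libraries. One gene of the microglial marker list is not reported here and entered none of its values.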

Additional observations from a re-analysis of the deposited data

How the results depend on the processing

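Of 680 values of single genes under the other settings, 617 kept their direction and their side of the threshold. Of the rest, 40 fell below it, 12 passed it and 11 that were not called moved in sign. The settings with no fold threshold and with a 4-fold one reused the main fit, so direction could not change in them. By the moved threshold alone they gave 8 of the 12 that passed and 12 of the 40 that fell below. Of 900 values refitted with 1 library left out, 878 kept both direction and side. No called value changed sign under any setting run. With a 4-fold threshold 3 genes were called in interneurons in place of 8 and 1 in dentate gyrus granule cells in place of 4. With batch as a covariate, the genes called numbered 10 in microglia, 8 in astrocytes, 7 in interneurons, 7 in cerebellar and 4 in dentate gyrus granule cells. Over all genes 10330, 8839, 5014, 9530 and 5689 were called in these comparisons. Where calls ended with batch 2 libraries only, the fold changes are given above. With limma on log2(TPM + 0.5), which understates the change of low genes, 9 genes were called in microglia in place of 10 and 5 in astrocytes in place of 8. There were 4 in interneurons in place of 8, 4 in cerebellar granule cells in place of 7 and 3 in dentate gyrus granule cells in place of 4. Over all genes 7694, 6290, 3179, 6077 and 3790 were called by limma in these comparisons. Leaving out 1 library gave 10 to 10 genes called in microglia, 8 to 8 in astrocytes, 8 to 9 in interneurons, 5 to 7 in cerebellar and 3 to 4 in dentate gyrus granule cells. Counts over all genes were not set beside those with a 4-fold threshold or with 1 library left out. With a pseudocount of 0.1 in place of 0.5, 11 of the 20 most similar genes remained. In dentate gyrus granule cells against layer V neurons, the P2rx7 difference, not called at -0.22, was 0.31 with length-scaled TPM. With the replicate number as a block, the counts of genes called stayed at 10, 8, 8, 7 and 4 and no call changed; same-numbered libraries correlated at -0.0999 to 0.1087 over 45 pairs, 2 of them over 0.1, and 12 of 18 libraries correlated best with their own number, a hint from the data and not the design. The precision of P2ry6, P2ry12, P2ry13 and P2ry14 outside microglia and astrocytes was limited by counts of at most 48 per library.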
